A study of Mus musculus with 9 samples.

Results

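Interferon-stimulated genes are the genes that cells switch on when interferon, a secreted alarm signal of virus-infected and immune cells, binds its receptor. The 39 genes described here were a fixed list of mouse symbols, taken from a table of 33293 gene identifiers through the GENCODE mouse release 21 annotation, and all 39 were matched to a row. They fall into 33 genes known mainly from the type I response (interferon alpha and beta) and 6 GTPases of the guanylate-binding and immunity-related families, known mainly as targets of interferon gamma. Irf1 is counted among the 33, although interferon gamma induces it. All 39 were measured in RNA of aorta tissue, taken from males of 7 to 8 weeks that had been fed normal chow. The 5 WT libraries came from C57BL/6J mice and the 4 Apoe_KO libraries from mice in which Apoe, the gene of the lipid carrier apolipoprotein E, was knocked out. The knockout allele and its strain background were not named (not given in the sources used here). Nothing in the labels says that every library is its own animal, so p-values cover the spread between these libraries, which may be technical. The labels give the comparison of the genotypes and state no further question.

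As background, type I interferons bind the receptor made of IFNAR1 and IFNAR2, and the kinases JAK1 and TYK2 then act on STAT proteins, STAT2 among them. With IRF9 these bind a DNA element called the interferon-stimulated response element (ISRE). Interferon gamma acts through another receptor and the gamma-activated sequence (GAS), and the induced factor IRF1 then also binds ISRE-like DNA. In the vessel wall, smooth muscle, endothelium and macrophages can all respond.

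Stretches of promoter are printed because they hold the letters of the elements that interferon signalling is known to use. The 12 printed are a fixed choice of type I and GTPase members, and each holds a match. All stretches come from the RefSeq promoter table of GRCm38.p6, which held 28 of the 39 members. An ISRE was searched on both strands as GAAA, any 2 bases and GAAA, and a GAS as TTCNNNGAA, which reads the same on both strands, within 250 bases before to 50 bases after the start. An ISRE match was in 17 of these 28 members (60.7%), against 3.99% of 27025 genes with a promoter in the table. By class it was in 12 of 23 type I members (52.2%) and in 5 of 5 GTPases. A GAS match was in 7 of 28 (25.0%), against 9.55% of all genes. By class it was in 5 of 23 type I members and in 2 of 5 GTPases. Each line reads 5′ to 3′ along the gene. Capitals mark the matches, and adjoining matches share letters and run together.

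Isg15 (chr4:156200846-156200925, minus strand, 107 to 28 bases before the start): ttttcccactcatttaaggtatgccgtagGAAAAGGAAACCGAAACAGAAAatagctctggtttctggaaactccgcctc
Ifit1 (chr19:34640759-34640838, plus strand, 130 to 51 bases before the start): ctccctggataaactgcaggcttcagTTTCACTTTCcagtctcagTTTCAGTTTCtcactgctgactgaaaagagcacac
Ifit3 (chr19:34583355-34583434, plus strand, 174 to 95 bases before the start): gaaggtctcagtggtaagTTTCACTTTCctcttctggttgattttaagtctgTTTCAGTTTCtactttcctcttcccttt
Ifit3b (chr19:34607751-34607830, plus strand, 206 to 127 bases before the start): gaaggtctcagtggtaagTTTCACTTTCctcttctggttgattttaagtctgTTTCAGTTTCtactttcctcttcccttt
Rsad2 (chr12:26456528-26456607, minus strand, 155 to 76 bases before the start): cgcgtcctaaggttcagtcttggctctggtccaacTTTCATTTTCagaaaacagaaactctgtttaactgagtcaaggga
Bst2 (chr8:71537558-71537637, minus strand, 165 to 86 bases before the start): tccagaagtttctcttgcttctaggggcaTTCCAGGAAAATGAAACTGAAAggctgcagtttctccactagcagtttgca
Irf1 (chr11:53769888-53769967, plus strand, 126 to 47 bases before the start): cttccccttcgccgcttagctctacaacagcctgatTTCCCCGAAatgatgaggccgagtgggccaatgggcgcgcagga
Gbp2 (chr3:142620569-142620648, plus strand, 94 to 15 bases before the start): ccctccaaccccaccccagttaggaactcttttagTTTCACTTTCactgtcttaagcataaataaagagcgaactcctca
Gbp3 (chr3:142559964-142560043, plus strand, 80 to 1 bases before the start): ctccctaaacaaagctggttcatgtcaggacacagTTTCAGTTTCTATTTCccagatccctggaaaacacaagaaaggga
Gbp7 (chr3:142530221-142530300, plus strand, 115 to 36 bases before the start): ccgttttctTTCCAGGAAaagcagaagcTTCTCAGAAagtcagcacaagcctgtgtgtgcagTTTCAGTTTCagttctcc
Igtp (chr11:58199476-58199555, plus strand, 80 to 1 bases before the start): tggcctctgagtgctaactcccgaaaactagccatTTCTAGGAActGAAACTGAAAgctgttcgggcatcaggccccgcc
Irgm1 (chr11:48871421-48871500, minus strand, 80 to 1 bases before the start): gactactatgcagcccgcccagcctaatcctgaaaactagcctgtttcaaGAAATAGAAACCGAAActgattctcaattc

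The Isg15 stretch held 3 overlapping ISRE matches, the Ifit1 stretch 2 and the Bst2 stretch 2 with an overlapping GAS match. The stretches of Ifit3 and Ifit3b were the same in all 80 bases, and the Irf1 stretch held a GAS and no ISRE match. All 5 GTPase members with an entry (Gbp2, Gbp3, Gbp7, Igtp and Irgm1) held an ISRE match, and Gbp7 and Igtp also a GAS match. Further ISRE matches lay 19 bases after the start in Eif2ak2, 33 bases after it in Ifih1 and 3 bases after it in Ddx58. Eif2ak2 also held a GAS match 178 bases before the start. Of the members not printed, Stat2, Oas3 and Oas1a held ISRE matches too, and Oas1a and Ifit2 GAS matches. A match is a stretch of letters and was not tested for binding.

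The values were read as FPKM, which scale reads by gene length and library size. Whole reads could be recovered from them at depths of 17.0 to 19.8 M per library, and a single read on a 2 kb gene came to 0.0253 to 0.0294 FPKM. The level of Apoe itself averaged 563 ± 53.97 FPKM over the 5 WT libraries and 6.22 ± 0.401 FPKM over the 4 Apoe_KO libraries (SD), and every library followed its label. The 6 smooth muscle markers, which define the medial wall of the vessel, summed to 4740 to 5634 FPKM in WT and 4843 to 6129 FPKM in Apoe_KO. Lymphocyte transcripts stood apart in WT 2 and Apoe_KO 4. The 7 B and plasma cell markers summed to 476 and 407 FPKM there and to 15.4 to 40.0 FPKM in the other libraries, and the 10 T and NK cell markers to 64.6 and 48.5 against 4.27 to 12.3 FPKM. None of those markers was at 0 in every library, and the only one at 0 in any was Ncr1. Class medians and calls are given with and without both libraries, and fold changes of several genes highest in WT 2 are given without them too.

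Most interferon-stimulated genes were at a lower mean level in the Apoe-deficient aorta, and Eif2ak2 and Gbp7 were the members that fell by the test. Of the 39 members 35 passed the filter of at least 1 FPKM in at least 4 libraries and were tested (limma on log2(FPKM + 1), adjusted over 13383 genes). Of these, 2 were called lower at an adjusted p under 0.05 and 0 higher, which is 5.71%, where 3.92% of all tested genes were called lower, 3.43% higher and 7.35% in either direction. At an unadjusted limma p under 0.05, 13 of the 35 were lower and 0 higher, against 16.0% of all tested genes lower and 8.59% higher. These 13 were 8 of the 29 tested type I members and 5 of the 6 GTPases. The log2 fold change was negative in 34 of the 35 and the median was -0.42, where 63.9% of all tested genes were negative and their median was -0.069. The share called at the adjusted p is therefore near the background. The share lower at the unadjusted p and the signs lean further to one side than those of all genes, and this lean was not tested. By class, the median was -0.38 over the 29 tested type I members, with 1 called, and -0.66 over the 6 GTPases, with 1 called. Folds of low genes are understated on the log2(FPKM + 1) scale, and the classes were not matched for level. The groups of libraries did not overlap in 3 members, Eif2ak2, Gbp7 and Ifih1 (8.57% of those tested), where 7.48% of all genes had every Apoe_KO library under every WT library, 4.9% the reverse and 12.4% either. Without WT 2 and Apoe_KO 4 the medians were -0.32 and -0.79 and no member was called.

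**Figure D1:**
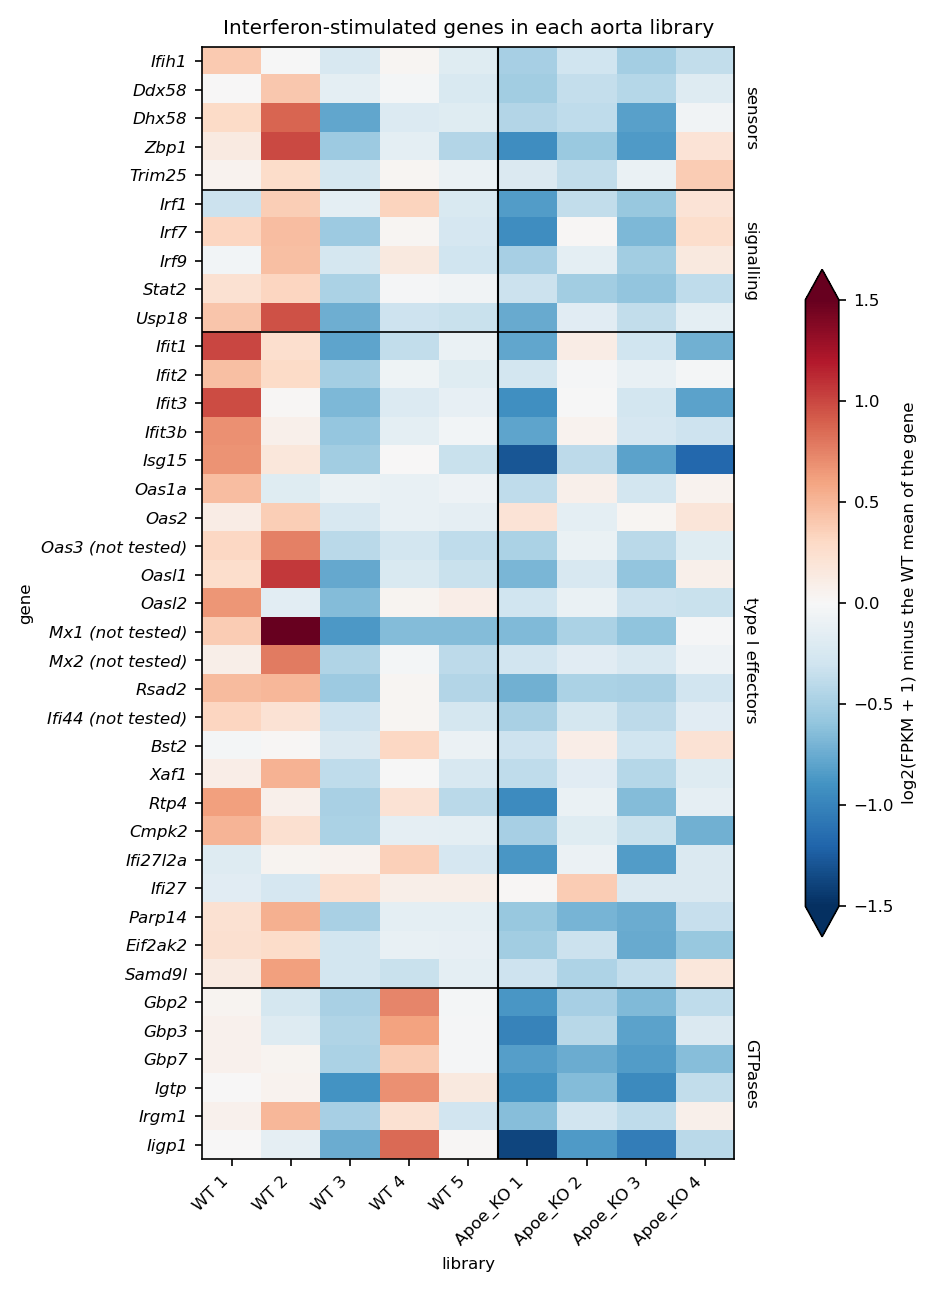
Each row is an interferon-stimulated gene and each column a library, and the colour is log2(FPKM + 1) minus the mean of the gene over the 5 WT libraries, in 4 role groups separated by lines. The WT 1 and WT 2 columns are red over most type I rows, the WT 4 column over the GTPase rows, and the Apoe_KO 1 and Apoe_KO 3 columns are mostly blue.

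The sensors of foreign nucleic acid were all at a lower mean level in Apoe_KO, and none passed the test. Ifih1 encodes MDA5, which binds long double-stranded RNA. It lies at chr2:62595798-62646255 of GRCm38 and was at 4.98, 3.54, 2.88, 3.67 and 3.03 FPKM in WT 1 to 5 and at 2.23, 2.71, 2.20 and 2.52 FPKM in Apoe_KO 1 to 4. All 4 knockout libraries lay under all 5 wild-type libraries, and the adjusted p missed the threshold (log2 fold change -0.42, SE 0.13, limma adjusted p = 0.0730). Here and below, the signed value before an SE is the log2 fold change, Apoe_KO minus WT. Ddx58 encodes RIG-I, the sensor of uncapped viral RNA ends. Its values were 6.42, 8.76, 5.66, 6.27 and 5.31 FPKM in WT and 4.15, 4.76, 4.48 and 5.46 FPKM in Apoe_KO, with the highest knockout library just above the lowest wild-type one (-0.38, SE 0.13, limma adjusted p = 0.101). Dhx58, for the related helicase LGP2, and Zbp1, which senses Z-form nucleic acid and can start cell death, varied widely. Dhx58 ran from 0.795 to 4.78 FPKM over all libraries and Zbp1 from 0.697 to 5.42 FPKM. Both were highest in WT 2, and the values of the genotypes overlapped. The log2 fold change of Dhx58 was -0.42 (SE 0.30, limma adjusted p = 0.418), -0.20 without WT 2 and -0.33 without WT 2 and Apoe_KO 4. That of Zbp1 was -0.53 (SE 0.34, 0.366), -0.28 without WT 2, -0.78 without Apoe_KO 4 and -0.53 without both. Trim25, a ubiquitin ligase that acts on RIG-I, was the sensor-group gene of highest level. It was at 9.90, 11.7, 7.78, 9.70 and 8.78 FPKM in WT and 8.03, 7.10, 8.76 and 12.7 FPKM in Apoe_KO, and its highest library was Apoe_KO 4. Its log2 fold change of -0.079 (SE 0.15, limma adjusted p = 0.792) was within the spread.

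The genes that carry the signal had lower means in Apoe_KO without passing the test. Stat2, whose product is activated at the type I receptor, was at 9.37, 10.1, 5.37, 7.77 and 7.58 FPKM in WT and 6.08, 5.16, 4.90 and 5.82 FPKM in Apoe_KO. Only WT 3 lay within the range of the knockout libraries (-0.46, SE 0.15, limma adjusted p = 0.0936), and without WT 3 Stat2 was called (adjusted p = 0.0185). Here and below, leaving out the WT library nearest the knockout values favours a call. Up to 1259 of all genes were called on leaving out 1 library, against 983 with all libraries. Irf1, whose product is induced by interferon gamma, was at 8.40, 14.2, 9.64, 13.9 and 9.01 FPKM in WT and 5.59, 8.12, 6.97 and 12.6 FPKM in Apoe_KO. Its highest knockout library, Apoe_KO 4, lay above 3 of the wild-type libraries (-0.39, SE 0.22, limma adjusted p = 0.319). The value was -0.59 without Apoe_KO 4, -0.24 without Apoe_KO 1 and -0.50 without WT 2 and Apoe_KO 4. Irf7, the driver of the interferon alpha genes, Irf9, the DNA-binding part of the STAT complex, and Usp18, which removes ISG15 from proteins and restrains the receptor, had log2 fold changes of -0.33, -0.26 and -0.36. Their SEs were 0.28, 0.19 and 0.32, and the limma adjusted p were 0.513, 0.429 and 0.520. Single libraries moved these fold changes, to -0.13 for Irf7 without Apoe_KO 1 and -0.53 without Apoe_KO 4, to -0.14 for Irf9 without WT 2 and -0.39 without Apoe_KO 4, and to -0.12 for Usp18 without WT 2 and -0.54 without WT 3. Without WT 2 and Apoe_KO 4 together they were -0.41, -0.28 and -0.19. All 5 signalling members were highest in WT 2, against 19.4% of all tested genes. WT 2 was rich in lymphocyte transcripts, as was Apoe_KO 4, and the part of those cells in these values was not tested. In whole tissue, fewer cells of a type and less RNA per cell cannot be told apart.

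Among the effectors of the type I response, Eif2ak2 fell and the rest did not pass. Eif2ak2 (chr17:78852564-78882573, minus strand, in GRCm38 coordinates of the annotation as for every gene position here) encodes PKR, the kinase that stops translation when it binds double-stranded RNA. It was at 9.20, 9.42, 6.16, 6.98 and 6.93 FPKM in WT 1 to 5 and at 4.999, 5.89, 4.11 and 4.83 FPKM in Apoe_KO 1 to 4. The lowest WT library, WT 3, was above the highest knockout library, Apoe_KO 2, by a small margin and Apoe_KO averaged 64.1% of WT (-0.54, SE 0.13, limma adjusted p = 0.0372). The call held without WT 3 (adjusted p = 0.0294) or Apoe_KO 2 (0.0280), and was lost without WT 1 (0.0747), WT 2 (0.0732), WT 4 (0.0670), WT 5 (0.0573), Apoe_KO 1 (0.0757), Apoe_KO 3 (0.109) or Apoe_KO 4 (0.0739). It was also lost without WT 2 and Apoe_KO 4 together (0.118) and with no filter on low genes (0.0967). Of its 5113 exonic bases, 221 lie opposite Gm26637 and n-R5s29, where reads of the partners cannot be told apart unless the counting used strand.

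Isg15, a ubiquitin-like protein that is attached to others during the response, had the largest log2 fold change of the tested effectors. It was at 20.3, 14.1, 8.28, 12.4 and 9.59 FPKM in WT and 4.47, 9.19, 6.67 and 4.90 FPKM in Apoe_KO. Apoe_KO 1, 3 and 4 lay under every wild-type library and Apoe_KO 2 lay above WT 3. Apoe_KO averaged 48.8% of WT, and the test was not passed (-0.91, SE 0.26, limma adjusted p = 0.0652). Isg15 was called without WT 3 (0.0438) or without Apoe_KO 2 (0.0353). Parp14, which adds ADP-ribose to proteins, was at 9.48, 11.9, 5.39, 7.08 and 7.10 FPKM in WT and 5.03, 4.52, 4.34 and 6.04 FPKM in Apoe_KO. Of the WT libraries, WT 3 alone lay within the knockout range (-0.59, SE 0.19, limma adjusted p = 0.0878), and without it the gene was called (0.0398).

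Ifi27l2a, which encodes a small hydrophobic interferon-induced protein, was the most abundant of the 39 per length of transcript. It was at 717, 843, 854, 1056 and 692 FPKM in WT and 447, 777, 459 and 705 FPKM in Apoe_KO. Apoe_KO 1 and 3 were low, and Apoe_KO 2 and 4 were among the wild-type values (-0.51, SE 0.19, limma adjusted p = 0.143). The same libraries were low in white adipocyte markers, whose 5 genes summed to 1913 and 2292 FPKM in Apoe_KO 1 and 3, to 3806 and 3069 FPKM in Apoe_KO 2 and 4 and to 3086 to 4853 FPKM in WT. All 5 markers had reads in every library and a negative log2 fold change, where 63.9% of all tested genes were negative. Of the 5 markers, 2 (Plin1 and Lep) were called lower, against 3.92% of all tested genes. The part of white adipocytes in the Ifi27l2a values was not tested. The related Ifi27 was at 169.8 ± 24.1 FPKM in WT and 170.2 ± 35.5 FPKM in Apoe_KO (SD, n = 5 and 4; -0.0065, SE 0.15). The means of FPKM and of the log2 values differed in sign there, by far less than the spread.

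The Ifit genes, whose products bind foreign RNA, showed a WT 1 pattern and no call. Ifit1 was at 16.001, 9.10, 3.88, 5.57 and 6.92 FPKM in WT and 3.93, 8.15, 5.88 and 4.14 FPKM in Apoe_KO. Ifit3 was at 44.1, 22.1, 13.3, 18.8 and 20.01 FPKM in WT and 11.04, 21.8, 17.9 and 12.1 FPKM in Apoe_KO. In both genes WT 1 was the highest library, Apoe_KO 2 the highest knockout library, and the genotypes overlapped. Ifit2 and Ifit3b were also highest in WT 1, and over the 4 genes the log2 fold changes ran from -0.50 to -0.11 with adjusted p of 0.364 to 0.742. Without WT 1 they were -0.17 for Ifit1, 0.0049 for Ifit2, -0.26 for Ifit3 and -0.15 for Ifit3b, and without WT 3 they were -0.62, -0.24, -0.67 and -0.47. The transcripts of Ifit3 and Ifit3b were 98.0% identical over 1697 aligned bases, so reads could have been split between them. The 2-5A synthetase genes (Oas1a, Oas2, Oas3), which act against viral RNA through the nuclease RNase L, have the relatives Oasl1 and Oasl2. Those tested had log2 fold changes of -0.14 for Oas1a, 0.07 for Oas2, -0.36 for Oasl1 and -0.26 for Oasl2 (adjusted p 0.486 to 0.789). These too moved with single libraries, to -0.02 for Oas1a and -0.10 for Oasl2 without WT 1, to 0.16 for Oas2 and -0.09 for Oasl1 without WT 2, and to 0.01 for Oas2, -0.55 for Oasl1 and -0.42 for Oasl2 without WT 3. Oasl1 was under the filter when WT 2 and Apoe_KO 4 were both left out. Oas2 was the only tested member with a positive sign. Oas1a is 97.5% identical to Oas1g over 1860 bases and is uncertain to that extent.

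Of the remaining tested effectors none passed. Rsad2 (viperin, an enzyme that makes a chain-terminating nucleotide) and its neighbour Cmpk2 (a nucleotide kinase) had log2 fold changes of -0.49 (SE 0.23, limma adjusted p = 0.215) and -0.43 (SE 0.19, 0.199). Rtp4 was at -0.46, Xaf1 at -0.29 and Samd9l, a restrictor of poxviruses, at -0.24, with adjusted p of 0.301 to 0.505. Without Apoe_KO 1 Rtp4 was at -0.30, and without WT 2 Xaf1 was at -0.16 and Samd9l at -0.09. Bst2, or tetherin, which holds budding virus at the cell surface, was at 37.4 ± 5.40 FPKM in WT and 35.7 ± 6.83 FPKM in Apoe_KO (SD, n = 5 and 4; -0.072, SE 0.14). The 4 members under the filter were Oas3, Mx1, Mx2 and Ifi44, and all had lower means in Apoe_KO. Mx1 and Mx2 are dynamin-like antiviral GTPases, and the Mx1 allele of C57BL/6 mice is known to lack coding exons. Mx1 was at 2.26, 7.60, 0.379, 0.602 and 0.604 FPKM in WT and 0.590, 0.813, 0.655 and 1.48 FPKM in Apoe_KO, so that WT 1 and WT 2 raised the WT mean to 2.29 FPKM while the other 3 WT libraries lay within or under the knockout range. The means of Oas3 were 0.553 and 0.211 FPKM in WT and Apoe_KO, those of Mx2 1.15 and 0.796 and those of Ifi44 0.962 and 0.547 FPKM.

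**Figure D2:**
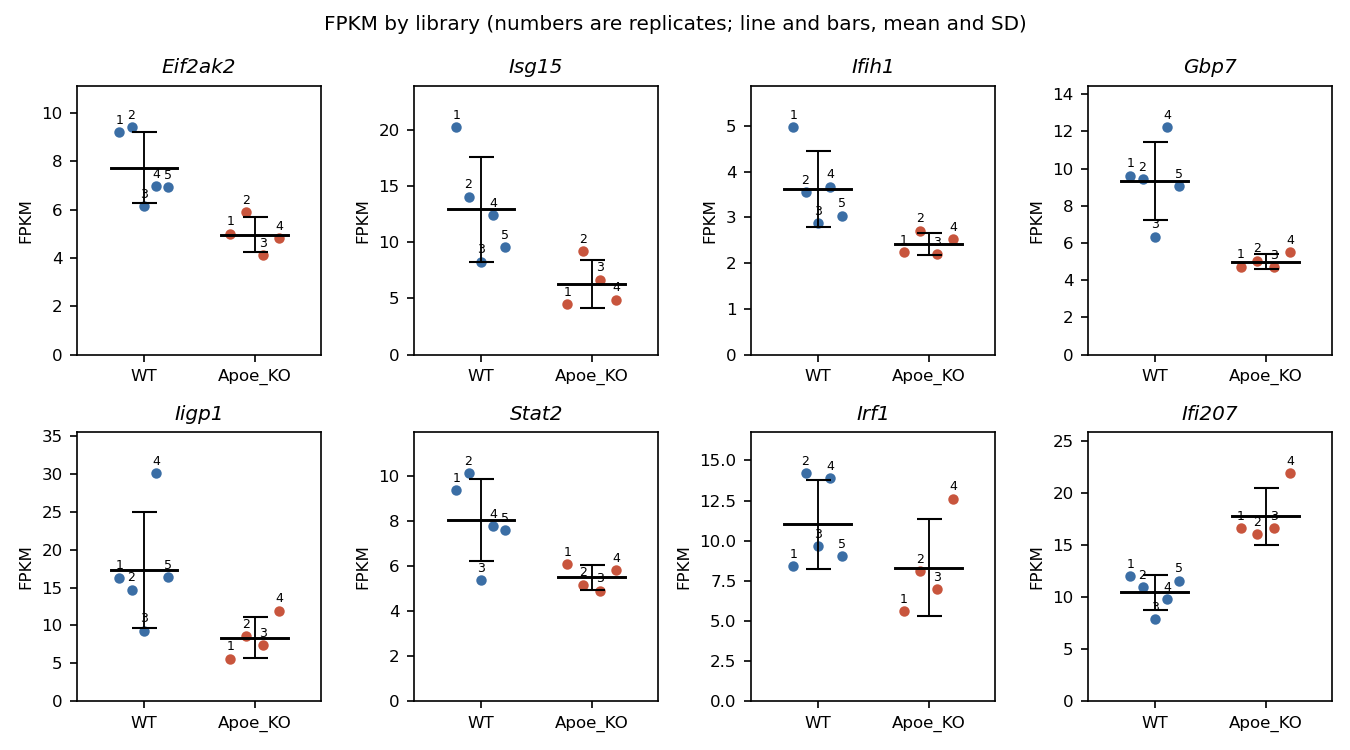
FPKM of 8 genes in each library, with WT in blue and Apoe_KO in red, replicate numbers beside the points, and the mean and SD as a line and bars. In Eif2ak2, Ifih1 and Gbp7 every knockout point lies under every WT point, in Ifi207 above, and in Isg15, Iigp1, Stat2 and Irf1 the groups overlap.

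All 6 interferon gamma GTPases were at a lower mean level in Apoe_KO, and Gbp7 fell. Guanylate-binding proteins and immunity-related GTPases gather on the vacuoles of bacteria and parasites and help to break them. Gbp7 (chr3:142530342-142550149, plus strand) was at 9.62, 9.44, 6.33, 12.2 and 9.04 FPKM in WT 1 to 5 and fell to 4.73, 5.05, 4.70 and 5.52 FPKM in Apoe_KO 1 to 4. The knockout libraries lay close together under all wild-type ones, at 53.6% of the WT mean (-0.76, SE 0.14, limma adjusted p = 0.0145). The call held when any 1 library other than Apoe_KO 3 was left out, and was lost without Apoe_KO 3 (0.0504) and without WT 2 and Apoe_KO 4 together (0.0564). Gbp7 shares 637 of its 5614 exonic bases with Gm43802 on the same strand.

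Gbp2 was at 28.5, 22.8, 19.4, 46.2 and 26.99 FPKM in WT and 14.6, 19.3, 17.05 and 20.9 FPKM in Apoe_KO, and Gbp3 at 14.04, 11.6, 9.51, 20.8 and 13.2 and 6.17, 9.77, 7.24 and 11.4 FPKM. In both WT 4 was well above the rest and WT 3 was within the knockout range (-0.60, SE 0.22 and -0.61, SE 0.22, limma adjusted p = 0.124 and 0.123). Igtp, a regulatory immunity-related GTPase, was at 16.3, 16.9, 8.29, 26.8 and 18.1 FPKM in WT and 8.26, 10.02, 7.93 and 12.3 FPKM in Apoe_KO. It was not called (-0.72, SE 0.27, limma adjusted p = 0.141), and without WT 3 it was (0.0200). Iigp1, an effector of the same family, was at 16.3, 14.7, 9.29, 30.1 and 16.4 FPKM in WT and 5.61, 8.58, 7.42 and 11.96 FPKM in Apoe_KO. Apoe_KO averaged 48.4% of WT, the lowest share among the 35 tested members, and WT 3 and Apoe_KO 4 kept the groups from separating (-0.92, SE 0.30, limma adjusted p = 0.0930; 0.0413 without WT 3). Irgm1, which controls the effector GTPases, had a log2 fold change of -0.31 (SE 0.21, limma adjusted p = 0.395), and -0.19 without WT 2. The difference between the GTPase and the type I medians was not tested. The 5 white adipocyte markers, on the same scale of mean log2 values over the WT mean, were highest in WT 4 (0.34) and lowest in Apoe_KO 1 and 3 (-1.20 and -0.91), where the GTPase means were also highest (0.58) and lowest (-0.94 and -0.78). Other libraries differed in order. WT 3 was at 0.11 for the markers and at -0.59, the lowest WT value, for the GTPases. Apoe_KO 2 lay above Apoe_KO 4 for the markers (-0.26 and -0.39) and below it for the GTPases (-0.57 and -0.33). The part of white adipocytes in the GTPase values was not tested.

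**Figure D3:**
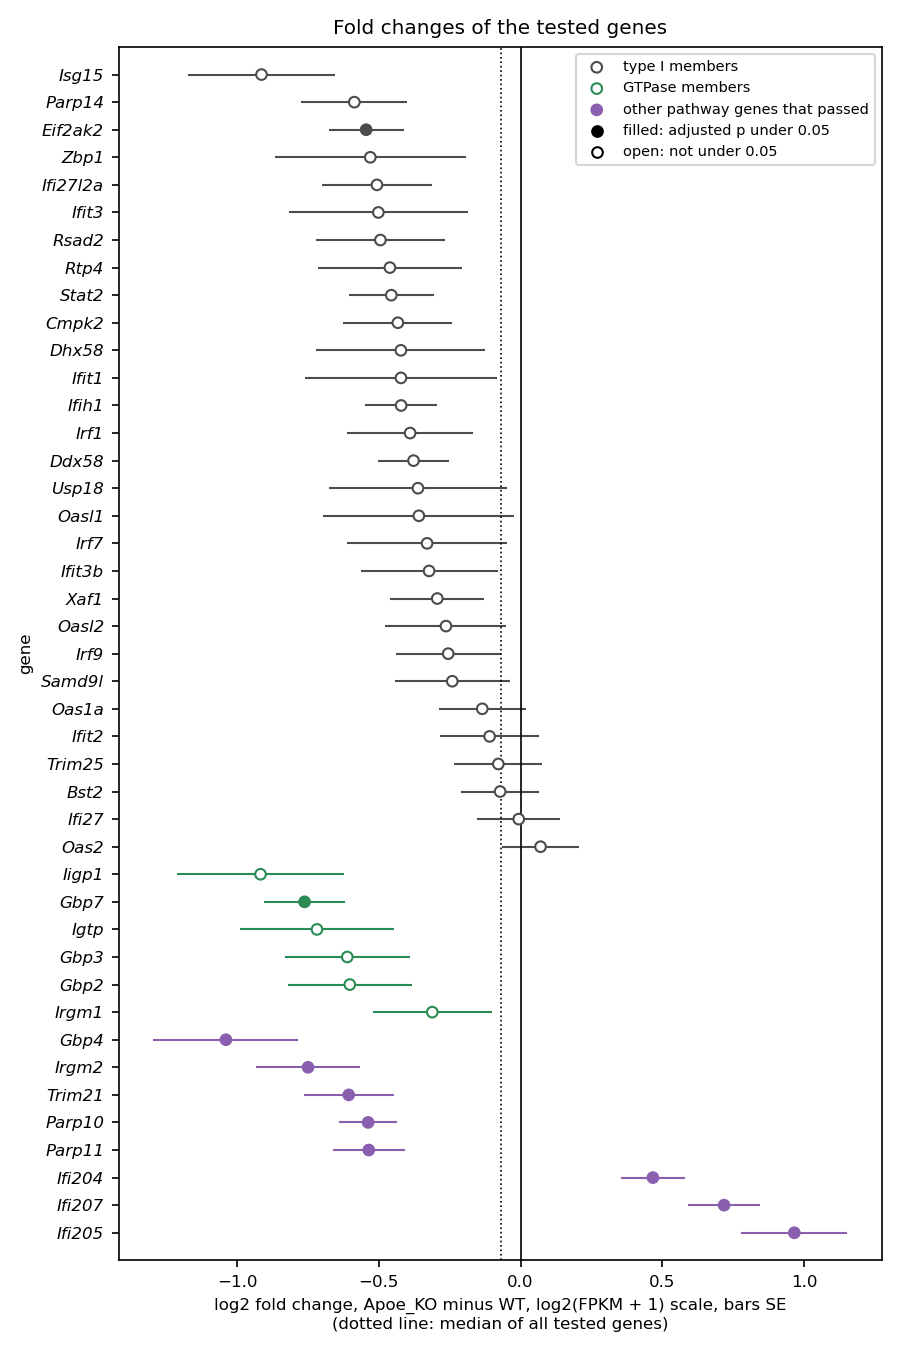
The log2 fold change (Apoe_KO minus WT, on the log2(FPKM + 1) scale) with its SE for the 35 tested members by class and for the 8 other pathway genes that passed, with filled points where the adjusted p was under 0.05. The dotted line is the median of all 13383 tested genes, and all members but Ifi27 and Oas2 lie to its left.

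The members were not all highest in the same wild-type library. Of the 33 type I members, 11 were highest in WT 1, among them the 4 Ifit genes, Isg15, Oas1a, Oasl2, Cmpk2 and Rtp4. A further 18 were highest in WT 2, among them Stat2, Irf7, Usp18, Dhx58, Zbp1, Mx1 and Eif2ak2. Of the 6 GTPases 5 were highest in WT 4, and Irgm1 in WT 2. Over all tested genes 18.4% were highest in WT 1, 19.4% in WT 2 and 9.5% in WT 4. Within the knockout group, 10 of the 11 genes of the WT 1 set were highest in Apoe_KO 2, 13 of the 18 of the WT 2 set in Apoe_KO 4, and all 6 GTPases in Apoe_KO 4, where 20.5% of all tested genes had their highest knockout value in Apoe_KO 2 and 33.0% in Apoe_KO 4. The lowest library was Apoe_KO 1 for 17 of the 35 tested members, against 11.5% of all tested genes. The deviations of WT 2 and Apoe_KO 4 from their group means were correlated across all tested genes (0.61). Genes high in WT 2 thus tended to be high in Apoe_KO 4 whether or not they were members. The shares of all genes given here were not restricted to genes highest in the same WT library. These sets were drawn from the values and are a description. The mean of the tested type I members, relative to the WT mean on the log2 scale, was 0.30 in WT 1, 0.33 in WT 2, -0.41 in WT 3, -0.04 in WT 4 and -0.19 in WT 5, and from -0.56 to -0.18 in Apoe_KO. For the GTPases it was 0.58 in WT 4, -0.59 in WT 3 and between -0.03 and 0.04 in the other WT libraries, against -0.94 to -0.33 in Apoe_KO. WT 3 lay within the knockout range on both measures, and WT 5 at the edge of it on the type I measure. Of the 10 macrophage markers, 9 had a positive log2 fold change and 0 were called, and their sums were 392 to 646 FPKM in WT and 487 to 965 FPKM in Apoe_KO. All 7 endothelial markers had a negative log2 fold change and 1 was called (Kdr), and their sums were 194 to 330 FPKM in WT and 177 to 298 FPKM in Apoe_KO. All 5 erythroid markers had a negative log2 fold change with a median of -1.43 and 0 called, and their sums were 136 to 1006 FPKM in WT, highest in WT 1, and 36.6 to 366 FPKM in Apoe_KO, lowest in Apoe_KO 1. Of all tested genes 63.9% had a negative log2 fold change, 3.92% were called lower and 3.43% higher. The part of these cell types in the members' differences was not tested.

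**Figure D4:**
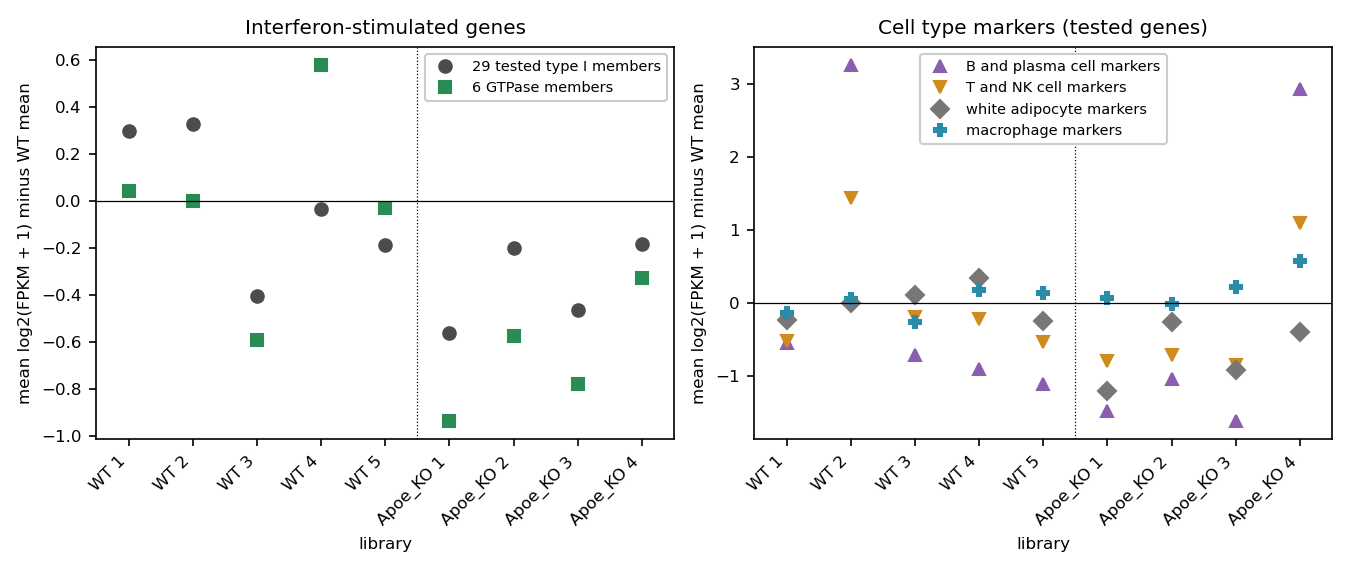
Left, the mean log2(FPKM + 1) of the tested type I and GTPase members in each library, minus the WT mean, and right, the same for 4 lists of cell type markers. WT 4 has the highest GTPase mean (0.58), WT 1 and WT 2 the highest type I means, and WT 2 and Apoe_KO 4 the highest B, plasma, T and NK cell means.

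The other genes of the pathway were read from lists of 133 genes, of which 115 were matched and 93 tested. Of these, 5 were called lower and 3 higher (5.38% lower, against 3.92% of all genes), with a median of -0.20. Of the 21 ligand genes listed 5 had a matched row. Of these, Ifnb1, Ifna2, Ifnab and Ifnk had 0 reads in every library, which allows up to 0.235, 0.171, 0.167 and 0.219 FPKM in the shallowest library (3 reads, counting error only), and Ifng had 0 to 4 reads. The other 16 ligands on the list, most interferon alpha genes among them, had no matched row and are not analysed here. Of the 8 tested genes of receptor chains and their kinases 0 were called by limma and 3 had an unadjusted p under 0.05, and the list had a median of -0.15. Those of smallest p, all receptor chains, were Ifngr2 (-0.33), Ifnar1 (-0.22) and Il10rb (-0.16), with adjusted p of 0.0980, 0.105 and 0.174. Of the 12 upstream sensor genes 0 were called. Those of smallest p were Tlr3 (-0.36), Tlr8 (0.47) and Mavs (-0.26), with adjusted p of 0.0803, 0.0977 and 0.158. Of the 8 negative regulators 0 were called, with Ptpn11 at 0.18, Adar at -0.33 and Socs3 at 1.63 (adjusted p = 0.0775, 0.201 and 0.202).

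Among other type I targets 3 of 46 tested genes fell (6.52%) and 3 rose, where 3.92% of all tested genes were called lower and 3.43% higher. Parp10, an ADP-ribosyltransferase gene, fell from 7.87 ± 0.873 to 5.12 ± 0.741 FPKM (SD, n = 5 and 4; -0.54, SE 0.10, limma adjusted p = 0.0161), and the related Parp11 from 2.17 ± 0.447 to 1.17 ± 0.199 FPKM (-0.54, 0.0343). Trim21, the cytosolic antibody receptor, fell from 5.20 ± 1.36 to 3.02 ± 0.485 FPKM (-0.61, 0.0481). The list held 5 tested genes of the p200 family, whose proteins bind DNA in nucleus or cytosol, and 3 of them rose. Ifi207 rose from 12.02, 10.97, 7.89, 9.78 and 11.6 FPKM in WT to 16.6, 16.1, 16.6 and 21.9 FPKM in Apoe_KO, with every knockout library above every wild-type one (0.72, SE 0.13, limma adjusted p = 0.0117). Ifi205 rose from 2.69 ± 0.743 to 6.24 ± 1.75 FPKM (0.97, SE 0.19, 0.0164) and Ifi204 from 5.79 ± 1.04 to 8.33 ± 0.815 FPKM (0.47, SE 0.11, 0.0382). The other family members, Ifi203 and Ifi209, were at -0.21 (SE 0.36, 0.758) and -0.40 (SE 0.77, 0.789), both highest in WT 2. Parp10, Ifi205 and Ifi207 kept their calls when any 1 library was left out. Without WT 2 and Apoe_KO 4 together, Parp10 and Ifi207 kept their calls, while Ifi205 (0.0702), Parp11 (0.110), Trim21 (0.0700), Ifi204 (0.146), Gbp4 (0.0802) and Irgm2 (0.0885) lost theirs. With no filter Parp11 (0.0850), Trim21 (0.123), Ifi204 (0.0986), Gbp4 (0.0992) and Irgm2 (0.0983) were not called. Parp11 lost its call without WT 1, 2, 4 or 5 or Apoe_KO 3 or 4 (0.0672 to 0.106), Trim21 without WT 1, 2 or 4 or any Apoe_KO library (0.0533 to 0.136), and Ifi204 without any library but WT 1 (0.0606 to 0.0864). Of other interferon gamma targets 2 of 19 tested genes fell (10.5%, against 3.92% of all tested genes). Gbp4, another guanylate-binding protein gene, fell from 5.36 ± 2.34 to 1.99 ± 0.665 FPKM (-1.04, SE 0.26, limma adjusted p = 0.0403) and Irgm2 from 15.8 ± 4.33 to 8.76 ± 1.06 FPKM (-0.75, SE 0.18, 0.0387). Gbp4 kept its call without WT 3 or Apoe_KO 4 and lost it without any other library (0.0528 to 0.0994), and Irgm2 kept it only without WT 3 (lost at 0.0504 to 0.108). Parp10 shares 205 of its 4275 exonic bases with Plec on the same strand. Irgm2 shares 162 exonic bases with Igtp, and Gbp4 shares bases with Gbp8 and Gbp9.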

How the data were processed

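RNA of mouse aorta tissue was sequenced in 5 WT and 4 Apoe_KO libraries. Per the labels' protocols ribosomal RNA was removed from total RNA, while the molecule field names polyA RNA. The submitters' processing notes name GRCm38 and limma without saying what limma did. Aligner, counter, annotation and strandedness were not stated (not given in the sources used here). A single table was deposited by the authors, holding 33293 identifiers with no unit in its header. They were read as FPKM, a unit the authors did not write down, because deposited value times exonic length in GENCODE mouse release 21 gave whole reads at a constant depth in each library. With a tolerance of 0.1 read, 97.6% to 97.9% of values up to 50 reads and 95.2% to 95.5% of all values were whole. Of the identifiers, 33240 were in that annotation. No 2 columns were identical.

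The 13383 genes that reached 1 FPKM in 4 or more libraries were fitted on log2(FPKM + 1) with limma 3.58.1 (trend and robust options, R 4.3.3), using genotype alone over the 9 libraries, with Benjamini-Hochberg adjustment over all tested genes and a threshold of 0.05. Folds on this scale understate the change of low genes. The fit was run on simulated reads with the same spread setting for every gene and no shifts shared within a library. That run cannot tell how stable the calls in these libraries are. Summaries and plots were made with Python 3.11.15, numpy 2.4.6, pandas 2.3.3 and matplotlib 3.10.9. The members and lists were chosen with earlier results of these data known. Values in every library are given for called members, members whose groups did not overlap, then by smallest p up to 12, and for the most abundant member of each role and Irf1. A gene of the wider pathway is not reported here. The Ifit1, Ifit3, Mx1 and Ifi207 values were added after they were seen. Other pathway genes are named where called, or the 3 of smallest p. Alternatives were another pseudocount, filters, centring, quantile normalization, library weights, a replicate block, voom on recovered reads and leaving out libraries. Same-numbered libraries of the 2 genotypes did not deviate together as a set, with a correlation of 0.26 for number 1 and negative ones for numbers 2, 3 and 4.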

Additional observations from a re-analysis of the deposited data

Results flagged for a closer look

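A single library lay far from the others of its group in 5 of 94 sets of values, by Dixon's criterion at 95%, and chance alone flags about 1 in 20. Ifit3 in WT 1 (44.1 FPKM, next 22.1) and Oas1a in WT 1 (4.21 FPKM, next 2.59) stood above the other WT libraries, and Mx1 in WT 2 did so at 7.60 FPKM (next 2.26). In the knockout group, Oasl2 was high in Apoe_KO 2 (4.87 FPKM, next 4.11) and Ifi207 in Apoe_KO 4 (21.9 FPKM, next 16.6).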

How the results depend on the processing

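Counts of calls moved with the processing. The reported counts were 1 type I and 1 GTPase member lower, 8 other pathway genes and 983 of all genes. They became 0, 1, 3 and 445 with no filter, 0, 0, 2 and 582 with a filter of 10 FPKM (6 type I and 4 GTPase members tested), 6, 4, 19 and 1757 with library weights, 0, 0, 4 and 377 without WT 2 and Apoe_KO 4, and 0, 0, 1 and 183 with the replicate block. With quantile normalization 5 other pathway genes were called. Same-numbered libraries did not pair as a set (correlations of their deviations 0.26, -0.27, -0.13 and -0.22), so the block rests on a shared number only. When each library was left out in turn, the ranges were 0 to 4 type I members, 0 to 3 GTPases, 3 to 12 other pathway genes and 383 to 1259 of all genes. The type I median ran from -0.48 to -0.26 and the GTPase median from -0.80 to -0.50. All genes called were 596 without WT 1, 602 without WT 2, 486 without WT 4, 634 without WT 5, 640 without Apoe_KO 1 and 383 without Apoe_KO 3. Where members gained a call without WT 3 or Apoe_KO 2, all genes called were 1259 at most. Signs turned for genes that had no call in any setting. Ifi27 was at 0.061 with median centring and 0.015 with the block, and from -0.14 to 0.063 on leaving out a library, where Bst2 ran from -0.17 to 0.0064, Ifit2 from -0.24 to 0.0049 and Trim25 from -0.23 to 0.020. Counting Irf1 with the GTPases, or leaving out near-identical paralogs, changed no count of calls, and the GTPase median was -0.61 with Irf1. Median centring and quantile normalization moved the median of all genes by 0.068 and 0.065. The cause of these changes was not tested. The 4 members under the filter entered the test with no filter, where 0 type I members were called.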
